A study of Mus musculus with 8 samples.

Results

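Zinc-handling genes were examined in eyecups of mice that lack Bbs8, a subunit of the BBSome, the protein complex that carries membrane proteins into and out of cilia. The 9 genes were Mt1, Mt2, Mt3, Mtf1, Slc30a1, Slc39a1, Slc39a6, Slc39a9 and Slc39a14. They were selected by gene symbol out of 31053 gene identifiers, and the choice was made with the results of the Bbs8-/- against Bbs8+/+ comparison in these same libraries already known. The levels, fold changes and adjusted p-values of the 9 genes are therefore a description and not an independent test. All 9 were present in the count files and all 9 passed the filter on low values, which kept 13813 genes for testing.

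The samples were retinal pigment epithelium (RPE) eyecups from C57/Bl6 mice at postnatal day 11, with 4 libraries from wild-type littermates (Bbs8+/+) and 4 from animals with a constitutive loss of Bbs8 (Bbs8-/-). None of the animals was treated. The eyecup is what is left of the eye once the cornea, lens, retina and optic nerve are taken away, so it holds choroid and sclera as well as the RPE, and every cell of a Bbs8-/- eyecup carries the mutation. RNA was read by QuantSeq 3′ mRNA sequencing, which counts the 3′ ends of polyadenylated transcripts.

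Zinc is held in cells at a tightly set free level. Metallothioneins are small cysteine-rich proteins that bind zinc and copper. The transcription factor encoded by Mtf1 senses free zinc and switches on metallothionein genes and the zinc exporter gene Slc30a1 through short promoter motifs called metal response elements. Transporters of the Slc30 family (ZnT) move zinc out of the cytosol, across the cell membrane or into vesicles and organelles, and those of the Slc39 family (ZIP) move it into the cytosol. The RPE is rich in zinc, and metallothioneins are well known in this tissue.

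The 3 metallothionein genes measured lay in a row on the plus strand of chromosome 8 (mm10, 1-based): Mt3 at chr8:94152607-94154146, Mt2 at chr8:94172664-94173568 and Mt1 at chr8:94179082-94180327. From the end of Mt2 to the start of Mt1 were 5514 bases, and from the end of Mt3 to the start of Mt2 were 18518 bases. Mt4, at chr8:94137197-94139031 in the same row, had 0 counts in every library. The promoter windows of Mt1, Mt2 and Slc30a1 are shown because they are the textbook carriers of metal response elements among these genes. Each sequence is the RefSeq window of 250 bases before to 50 bases after the annotated start (GRCm38.p6, plus strand, 5′ to 3′), at chr8:94178839-94179138 for Mt1, chr8:94172368-94172667 for Mt2 and chr1:191906531-191906830 for Slc30a1. Capitals mark the core letters of the element, TGCACNC or TGCGCNC, on either strand, so a match on the minus strand appears as its reverse complement.
Mt1: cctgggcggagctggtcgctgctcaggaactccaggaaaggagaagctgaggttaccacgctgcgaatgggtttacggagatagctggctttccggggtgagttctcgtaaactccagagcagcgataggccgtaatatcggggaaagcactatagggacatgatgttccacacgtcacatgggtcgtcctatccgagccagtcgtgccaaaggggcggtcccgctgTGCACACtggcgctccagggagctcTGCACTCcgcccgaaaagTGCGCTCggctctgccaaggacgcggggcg
Mt2: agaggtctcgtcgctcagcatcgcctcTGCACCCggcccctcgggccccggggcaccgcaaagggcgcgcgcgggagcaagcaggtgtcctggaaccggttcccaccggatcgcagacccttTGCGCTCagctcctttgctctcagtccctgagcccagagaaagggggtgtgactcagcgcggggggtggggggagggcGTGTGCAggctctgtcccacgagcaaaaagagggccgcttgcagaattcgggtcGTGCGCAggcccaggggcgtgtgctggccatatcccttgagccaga
Slc30a1: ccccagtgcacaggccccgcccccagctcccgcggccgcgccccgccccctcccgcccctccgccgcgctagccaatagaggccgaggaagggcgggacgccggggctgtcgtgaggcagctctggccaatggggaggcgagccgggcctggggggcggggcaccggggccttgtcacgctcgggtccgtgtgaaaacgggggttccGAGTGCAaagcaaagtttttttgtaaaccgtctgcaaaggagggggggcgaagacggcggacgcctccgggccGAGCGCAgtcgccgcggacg

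The Mt1 window held 3 core matches, all on the plus strand, whose first bases lay at -23, 2 and 20 from the start base. The Mt2 window held 4, with the leftmost bases at -223 and -128 on the plus strand and at -50 and 4 on the minus strand. The Slc30a1 window held 2, both on the minus strand, at -43 and 30. Mt3 had 1 match, and Mtf1, Slc39a1 and Slc39a9 had 0. The promoters of Slc39a6 and Slc39a14 were not analysed here. In the 7 windows read no match overlapped another. Of all 32851 RefSeq promoter windows of this length, 25.7% held at least 1 match, 7.11% at least 2, 1.97% at least 3 and 0.517% at least 4. The matches are matches of letters only, and no binding was measured. Bases outside the windows were not read, and the start in use in these eyecups was not measured.

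By adjusted p-value the metallothioneins Mt1 and Mt2 led the 9 genes, while by fold Slc39a9 differed most. Mt1 and Mt2 were 1.21 and 1.20 times as high in Bbs8-/- as in Bbs8+/+ eyecups, while Mt3 differed little. Levels are given as CPM, counts scaled to the library total with TMM normalisation factors. Because each transcript yields 1 tag at its 3′ end, these levels are not divided by gene length, also where genes are compared with each other.

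Mt1 (ENSMUSG00000031765) stood at 859.5, 879, 844 and 869 CPM in the Bbs8+/+ libraries. In the Bbs8-/- libraries it stood at 1016, 1043, 1023 and 1085 CPM. Every mutant library lay above every control library, and the gap between the groups was wider than the range within either. On average the mutants stood at 1042 ± 30.7 CPM against 863 ± 14.9 CPM for the controls (SD, n = 4 for either), so Mt1 rose by 0.27 on the log2 scale (SE 0.0497, edgeR quasi-likelihood test, FDR = 4.48e-05).

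Mt2 (ENSMUSG00000031762), the close partner of Mt1 in the cluster, stood at 311, 308, 331 and 341 CPM in Bbs8+/+ and at 371, 415, 385 and 378 CPM in Bbs8-/-. The groups again did not overlap, and the second Bbs8-/- library was the highest of all 8. Its average was 387 ± 19.6 CPM in the mutants against 323 ± 15.9 CPM in the controls, and Mt2 rose by 0.26 on the log2 scale (SE 0.0652, edgeR FDR = 0.00778). Without that library the log2 fold change was 0.23 and the edgeR FDR was 0.0622, above the threshold of 0.05. The opposite-strand gene Gm45774 shared 432 exonic bases with Mt2, the nearest 156 bases from its 3′ end, and had 0 to 2 counts per library. Whether the counting used strand is not given in the sources used here. Without strand, reads in the shared bases would fall to no single gene and be left out, which would lower the level of Mt2.

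Mt3 (ENSMUSG00000031760), the family member best known from neurons, stood at 25.4, 29.1, 34.6 and 27.2 CPM in Bbs8+/+ and at 30.3, 31.8, 28.9 and 30.8 CPM in Bbs8-/-. The third Bbs8+/+ library was the highest of all, and the groups overlapped fully. The log2 fold change was 0.07 (SE 0.181, edgeR FDR = 0.923), with 0.019 without Bbs8+/+ replicate 1 and 0.16 without Bbs8+/+ replicate 3.

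**Figure D1:**
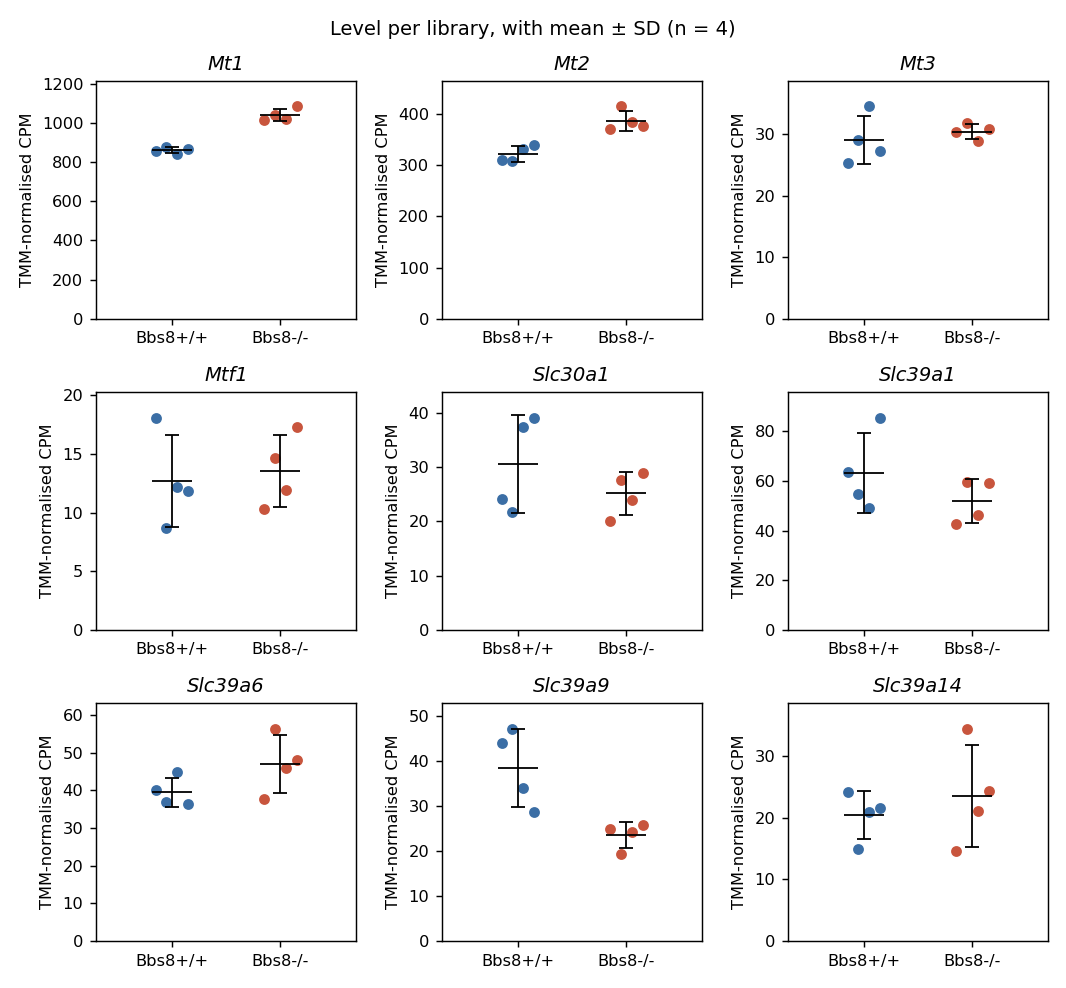
Level of each of the 9 genes in every library (y axis, TMM-normalised CPM, from 0; points are libraries, bars are the mean ± SD of 4). Mt1, Mt2 and Slc39a9 are the genes whose groups do not overlap, and the other 6 genes overlap between Bbs8+/+ and Bbs8-/-.

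The proportion of Mt1 to Mt2 overlapped between the genotypes, and its difference was not tested. The strand limit given for Mt2 applies to these proportions. For each count of Mt2 there were 2.68 ± 0.155 counts of Mt1 in controls and 2.70 ± 0.150 in mutants (SD, n = 4), with ranges of 2.55 to 2.85 and 2.51 to 2.87. Mt1 made up 71.1% of all metallothionein counts in Bbs8+/+ and 71.4% in Bbs8-/-. Mt3 made up 2.39% and 2.09%. The summed metallothionein level rose from 1214 ± 17.2 to 1459 ± 38.2 CPM, and the lowest mutant library, at 1417 CPM, lay above the highest control library, at 1237 CPM. The longest stretch of identical sequence between transcripts was 20 bases for Mt1 and Mt2 and 27 bases for Mt1 and Mt3, while the reads were 100 bases long.

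The precision behind these values differed among the 9 genes. Mt1 rested on 1676 to 2490 counts per library and varied between Bbs8+/+ libraries with a coefficient of variation of 1.73%, beside 2.17% from counting alone. Mt2 rested on 611 to 976 counts, with 4.93% beside 3.54%. Mtf1 had 17 to 42 counts per library and Slc39a14 had 24 to 66. Slc39a1 and Slc30a1 varied between Bbs8+/+ libraries by 25.4% and 29.3%, while counting alone gives 7.92% and 11.5%.

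Mtf1, the zinc sensor, was the lowest of the 9 genes. Mtf1 (ENSMUSG00000028890, chr4:124802104-124849800, plus strand) stood at 18.1, 8.65, 12.1 and 11.9 CPM in Bbs8+/+ and at 10.3, 14.6, 11.9 and 17.3 CPM in Bbs8-/-. The highest and the lowest library of all 8 were both controls. The log2 fold change was 0.11 (SE 0.273, edgeR FDR = 0.923). It was -0.035 without Bbs8+/+ replicate 2 or without Bbs8-/- replicate 4, and 0.33 without Bbs8+/+ replicate 1. A gene on the opposite strand, 1110065P20Rik, shared 721 exonic bases with Mtf1 and reached to its 3′ end. As for Mt2, reads in the shared bases would be left out if the counting did not use strand. That would lower the level of Mtf1, also in its order among the 9 genes.

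Slc30a1 encodes ZnT1, the zinc exporter of the cell membrane and, like Mt1, a classical target of the factor that Mtf1 encodes. Slc30a1 (ENSMUSG00000037434, chr1:191906767-191913247, plus strand) stood at 24.1, 21.6, 37.4 and 39.1 CPM in Bbs8+/+ and at 20.01, 27.7, 23.8 and 28.9 CPM in Bbs8-/-. The control libraries fell into a low pair and a high pair, and the mutant libraries overlapped the low pair. Controls averaged 30.6 ± 8.95 CPM and mutants 25.1 ± 4.04 CPM, a log2 fold change of -0.28 (SE 0.193, edgeR FDR = 0.592). Without Bbs8+/+ replicate 4 it was -0.12, and without Bbs8+/+ replicate 2 it was -0.41. The opposite-strand gene 1700034H15Rik shared 468 exonic bases with Slc30a1, 5720 bases away from the 3′ end of Slc30a1, and had 0 to 2 counts per library.

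Among the importers, Slc39a9 was lower in Bbs8-/- eyecups and the other 3 did not pass the test. Slc39a9 (ENSMUSG00000048833, chr12:80643883-80683342, plus strand) encodes ZIP9, a zinc transporter known from the Golgi and the cell membrane. It stood at 43.9, 47.2, 34.1 and 28.6 CPM in Bbs8+/+ and at 24.9, 19.3, 24.3 and 25.7 CPM in Bbs8-/-. The groups did not overlap, but the lowest control and the highest mutant library lay close together. Its average was 23.5 ± 2.87 CPM in the mutants against 38.5 ± 8.60 CPM in the controls, which is a log2 fold change of -0.70 (SE 0.183, edgeR FDR = 0.0139), on 73 to 120 counts per control library and 37 to 55 per mutant library. The call was lost without Bbs8+/+ replicate 1, where the log2 fold change was -0.63 and the edgeR FDR 0.0745. It was also lost without Bbs8+/+ replicate 2 (-0.58, edgeR FDR = 0.151) and without Bbs8-/- replicate 2 (-0.62, edgeR FDR = 0.0818). The opposite-strand gene Erh shared 459 exonic bases with Slc39a9, 39001 bases away from the 3′ end of Slc39a9, and had 4 to 16 counts per library.

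Slc39a1 encodes ZIP1, a broadly expressed importer of the cell membrane. Slc39a1 (ENSMUSG00000052310, chr3:90248172-90253612, plus strand) stood at 63.8, 54.7, 49.0 and 85.5 CPM in Bbs8+/+ and at 42.5, 59.5, 46.3 and 59.3 CPM in Bbs8-/-. The fourth control library stood apart above the rest, and the remaining libraries overlapped. The log2 fold change was -0.29 (SE 0.140, edgeR FDR = 0.353). Without Bbs8+/+ replicate 4 it was -0.0995.

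Slc39a6 encodes ZIP6, an importer of the cell membrane related to ZIP10. Slc39a6 (ENSMUSG00000024270, minus strand of chromosome 18) stood at 40.1, 37.0, 44.8 and 36.3 CPM in Bbs8+/+ and at 37.6, 56.4, 45.9 and 48.1 CPM in Bbs8-/-. The 3 highest libraries were mutant, and the fourth mutant library lay among the controls. The log2 fold change was 0.26 (SE 0.153, edgeR FDR = 0.492). Without Bbs8-/- replicate 2 it was 0.17.

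Slc39a14 encodes ZIP14, which carries iron and manganese as well as zinc. Slc39a14 (ENSMUSG00000022094, chr14:70303469-70351425, minus strand) stood at 24.1, 14.9, 21.0 and 21.6 CPM in Bbs8+/+ and at 14.6, 34.5, 21.1 and 24.3 CPM in Bbs8-/-. The lowest and the highest library were both mutant. The log2 fold change was 0.22 (SE 0.216, edgeR FDR = 0.751). It was -0.0096 without Bbs8-/- replicate 2 and 0.38 without Bbs8-/- replicate 1.

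Of the 9 genes, 2 were called higher at an edgeR FDR of 0.05 and 1 was called lower. Among all 13813 genes tested, 1.10% were called higher, 1.14% lower and 2.24% in either direction. Control and mutant libraries were fully apart for 3 of the 9 genes and for 7.38% of the 13813. Nothing is read from these shares, since the comparison itself was known when the genes were chosen. An unadjusted p under 0.05 was found for 4 of the 9 genes and for 1792 of the 13813 genes tested, or 13.0%. The median log2 fold change was 0.11 over the 9 genes and -0.0041 over all genes tested. DESeq2 called 3 of the 9 genes as well, and 130 genes higher and 118 lower over the whole table.

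The whole gene families gave the setting. Of the 28 genes of the metallothionein, Slc30 and Slc39 families, 22 passed the filter. Of the 10 Slc30 exporter genes, 7 were tested and 0 were called by edgeR or by DESeq2, with 1 at an unadjusted p under 0.05, beside 13.0% of all genes. The estimate was below 0 for 5 of the 7, and their median log2 fold change was -0.18. Of the 14 Slc39 importer genes, 12 were tested, 0 were called higher and 1, Slc39a9, was called lower, also by DESeq2. The estimate was above 0 for 7 and below 0 for 5 of the 12, with a median of 0.07, and 4 had an unadjusted p under 0.05, beside the same 13.0% of all genes.

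Of the 19 tested transporter genes, 3 had groups that did not overlap, beside 7.38% of all genes tested. They were Slc39a9 and a pair outside the 9, neither of which passed the test. Slc30a6, which encodes a transporter that loads zinc into the secretory pathway, stood at 12.5, 11.8, 11.7 and 12.6 CPM in Bbs8+/+ and at 2.43, 8.35, 7.80 and 7.0 CPM in Bbs8-/-. Its log2 fold change was -0.89 (SE 0.326, edgeR FDR = 0.158). Slc39a8, which encodes ZIP8, the close relative of ZIP14, stood at 9.91, 6.29, 4.20 and 4.19 CPM in Bbs8+/+ and at 1.82, 2.61, 2.29 and 3.27 CPM in Bbs8-/-. Its log2 fold change was -1.26 (SE 0.504, edgeR FDR = 0.220), on 3 to 23 counts per library. The lowest of these levels were near the depth limit, as 3 counts corresponded to 1.04 to 1.83 CPM.

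The transporter gene with the highest level was Slc39a7, which encodes ZIP7, the release channel for zinc of the endoplasmic reticulum. Slc39a7 averaged 95.8 ± 11.0 CPM in controls and 112 ± 11.5 CPM in mutants (SD, n = 4), a log2 fold change of 0.23 (SE 0.103, edgeR FDR = 0.294). The other tested transporters outside the 9 had log2 fold changes between -0.32 for Slc39a10 and 0.29 for Slc30a10, with edgeR FDR values of 0.486 and 0.921. Slc39a10 was at -0.19 without Bbs8+/+ replicate 2 and at -0.49 without Bbs8+/+ replicate 4, and Slc30a10 at -0.10 without Bbs8+/+ replicate 1. Slc30a10 stood near the depth limit, at a mean of 1.85 CPM in Bbs8+/+ and 2.23 CPM in Bbs8-/-. The genes that did not pass the filter were Mt4, Slc30a8 and Slc39a5, at 0 counts in all libraries, and Slc30a2, Slc30a3 and Slc39a2, of which Slc30a2 had up to 4 counts.

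Added together, the Slc30 genes stood at 172 ± 10.0 CPM in controls and 153 ± 4.63 CPM in mutants. The groups did not overlap, with 161 to 184 and 147 to 158 CPM. The summed level of the Slc39 genes overlapped, at 457 ± 20.5 and 451 ± 38.9 CPM. The ratio of summed Slc39 to summed Slc30 levels averaged 2.67 ± 0.177 in controls and 2.94 ± 0.200 in mutants, and its ranges overlapped.

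**Figure D2:**
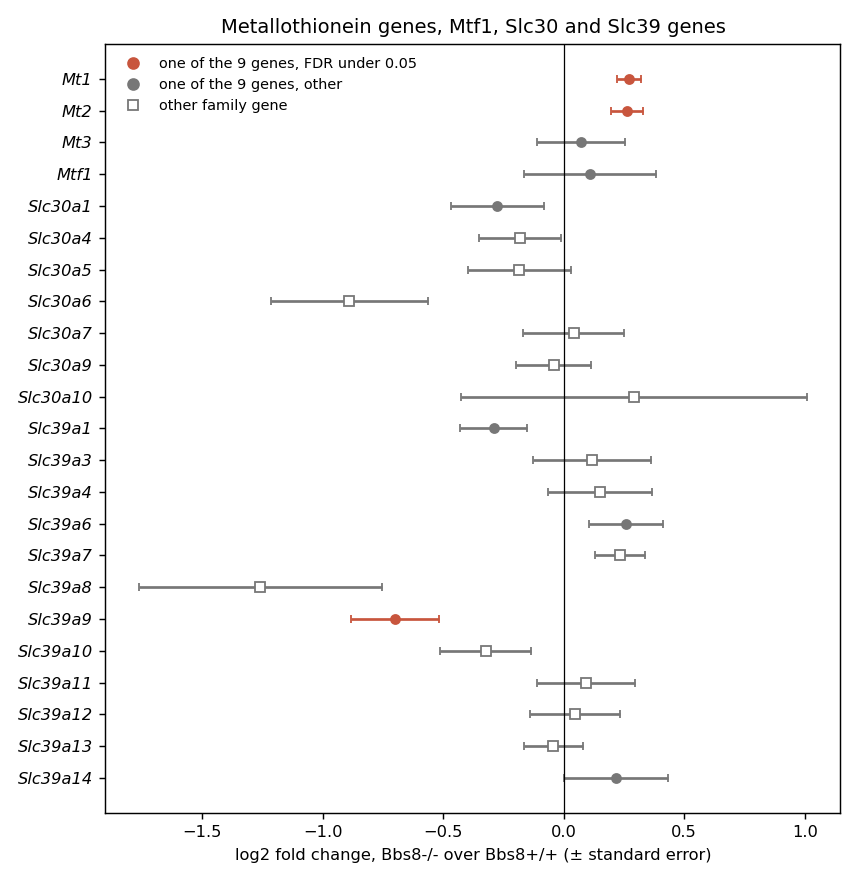
Log2 fold change of Bbs8-/- over Bbs8+/+ (x axis) for the tested metallothionein, Slc30 and Slc39 genes and Mtf1 (y axis), with bars of 1 standard error on each side from the edgeR fit. Mt1 at 0.27 and Mt2 at 0.26 have short bars to the right of 0, Slc39a9 at -0.70 lies to the left, and the low-level genes Slc30a6, Slc30a10 and Slc39a8 have the long bars.

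In wild-type eyecups the levels of the 9 genes fell in a steep order. Mt1 was 2.67 times as high as Mt2, and Mt2 was 5.10 times as high as Slc39a1, with no overlap between the ranges of either pair of neighbours. The strand limit given for Mt2 applies to both ratios. By its mean over the 8 libraries Mt1 ranked 55 and Mt2 254 among the 13813 tested genes, while Slc39a1 ranked 2923 and Mtf1 8133. Slc39a1 stood 1.60 times above Slc39a6, again with separate ranges. Slc39a6, Slc39a9, Slc30a1 and Mt3 followed, and the ranges of neighbours overlapped. Mt3 lay 1.42 times above Slc39a14 without overlap, and Slc39a14 and Mtf1 overlapped.

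The 5 genes whose levels most resembled that of Mt1 across the 8 libraries were Glo1, Otx2, Rplp1, Trf and Rbm39, among 3338 genes with a mean of at least 50 CPM. Pearson's r of log2(CPM + 1) with Mt1 was 0.984 for Glo1 (a glyoxalase that detoxifies methylglyoxal), 0.975 for Otx2 (a transcription factor of RPE and photoreceptors), 0.972 for Rplp1 (a ribosomal protein), 0.970 for Trf (transferrin, the iron carrier) and 0.969 for Rbm39 (a splicing factor). Mt2 ranked 85, with an r of 0.876. The points share genotype and library, so a gene that differs between the genotypes and varies little within them scores high. Glo1 rose from 98.7 ± 5.46 in controls to 161 ± 4.21 CPM in mutants (edgeR FDR = 2.5e-09) and Trf from 932 ± 22.3 to 1311 ± 16.9 CPM (edgeR FDR = 1.09e-15). Otx2 and Rplp1 rose as well, with log2 fold changes of 0.48 and 0.74 (edgeR FDR = 6.01e-12 and 6.27e-27). Rbm39 had a log2 fold change of 0.11 and was not called (edgeR FDR = 0.422), although its groups did not overlap.

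Metallothioneins are also known to respond to copper, oxidative stress and glucocorticoids, and short lists of such genes were read in the same fit. Of 11 copper-handling genes, all tested, 1 was called higher and 0 lower by edgeR, 2 had an unadjusted p under 0.05, and the median log2 fold change was -0.06. Over all genes tested 2.24% were called and 13.0% had such a p. The called gene was Sod1, which encodes the copper and zinc superoxide dismutase. Sod1 stood at 568, 563, 568 and 537 CPM in Bbs8+/+ and at 658, 625, 697 and 697 CPM in Bbs8-/-, with no overlap. The log2 fold change of Sod1 was 0.26 (SE 0.0558, edgeR FDR = 0.000893), close to the values of Mt1 and Mt2. The copper exporter gene Atp7a stood at 98.8 CPM in Bbs8+/+ and 95.0 CPM in Bbs8-/- (log2 fold change -0.06, edgeR FDR = 0.893). Its log2 fold change was -0.097 without Bbs8-/- replicate 2 and -0.012 without Bbs8-/- replicate 1.

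Of 13 genes of the oxidative stress response under the transcription factor Nrf2, 0 were called by edgeR or DESeq2 and 3 had an unadjusted p under 0.05, beside 13.0% of all genes. Their median log2 fold change was -0.06. The peroxiredoxin gene Prdx1 stood at 278 ± 17.4 CPM in Bbs8+/+ and 236 ± 19.4 CPM in Bbs8-/- (log2 fold change -0.23, edgeR FDR = 0.0635). Nfe2l2, which encodes Nrf2 itself, had a log2 fold change of -0.12 (edgeR FDR = 0.688), with -0.20 without Bbs8+/+ replicate 4 and -0.054 without Bbs8-/- replicate 2.

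Of 10 glucocorticoid-responsive genes, 1 was called higher and 1 lower by edgeR (2.24% of all genes were called in either direction), 4 had an unadjusted p under 0.05 (13.0% of all genes), and the median log2 fold change was -0.23. The kinase gene Sgk1 rose from 262 ± 21.4 to 333 ± 45.9 CPM (log2 fold change 0.35, SE 0.0721, edgeR FDR = 5e-04). Without Bbs8-/- replicate 4 the log2 fold change of Sgk1 was 0.26 and the edgeR FDR 0.0531. The transcription factor gene Klf9 fell from 301 ± 10.2 to 224 ± 24.6 CPM (log2 fold change -0.43, SE 0.0729, edgeR FDR = 8.11e-06). The pair of called genes of this list thus moved in opposite directions, and the estimate was below 0 for 8 of the 10 genes.

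Total gene counts were 1636725 to 2884983 per library. Bbs8 itself, listed under its symbol Ttc8, stood at 14.6 to 21.6 CPM in Bbs8+/+ and at 2.29 to 9.70 CPM in Bbs8-/- (log2 fold change -1.95, SE 0.317, edgeR FDR = 2.74e-06). Summed levels of cell type markers differed between the groups as well. All 10 RPE markers, Rpe65 and Best1 among them, were detected, and they summed to 17238 to 18249 CPM in controls and 18448 to 18800 CPM in mutants, a ratio of means of 1.04. The fibroblast list had 34531 to 36272 and 27144 to 28293 CPM, a ratio of 0.782, and the melanocyte list a ratio of 0.833. The RPE is itself pigmented and the melanocyte list includes pigment genes, so this list does not separate melanocytes from RPE. The photoreceptor list had 514 to 561 and 390 to 472 CPM, a ratio of 0.822, and the macrophage list 477 to 528 and 574 to 618 CPM, a ratio of 1.17. The lens list, mainly crystallins, had 225 to 265 and 646 to 692 CPM, a ratio of 2.81. Müller glia and astrocyte markers (ratio 1.03) and endothelial markers (ratio 1.04) overlapped between the groups. Within the lists, 13 of 19 tested lens markers and 2 of 10 macrophage markers were called higher by edgeR, while 6 of 10 melanocyte and 2 of 14 photoreceptor markers were called lower. Of the 10 fibroblast markers 4 were called lower and 1 higher, of the 10 Müller glia and astrocyte markers 1 each way, and of the 10 endothelial markers 1 higher. Over all genes tested 1.10% were called higher and 1.14% lower. Of the 10 RPE markers 0 were called by edgeR and 1 by DESeq2, with 5 at an unadjusted p under 0.05, beside 13.0% of all genes. Summed Y-linked genes stood at 59.0 to 64.9 CPM in controls and 108 to 120 CPM in mutants, a ratio of 1.86 without overlap. The labels used here give no sex, so sex cannot be told apart from genotype for Mt1, Mt2, Slc39a9 or any other gene.

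The summed level did not overlap between the genotypes for 7 of these 9 lists, the Y-linked list among them. Each of the 7 had the smallest p that 4 against 4 libraries allow (two-sided exact permutation test, p = 0.0286, and 0.0367 after Benjamini-Hochberg adjustment over the 9 lists). These p-values restate the lack of overlap. They are a description, since the lists were chosen with earlier results of these data known. Mt1 and Mt2, by comparison, had ratios of 1.21 and 1.20. Of the 7 lists without overlap, 4 were higher and 3 lower in Bbs8-/-. These 7 lists differed with genotype, as did Mt1, Mt2 and Slc39a9, and their part in those differences was not tested. In a whole eyecup, fewer cells of a type and less RNA per cell cannot be told apart.

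**Figure D3:**
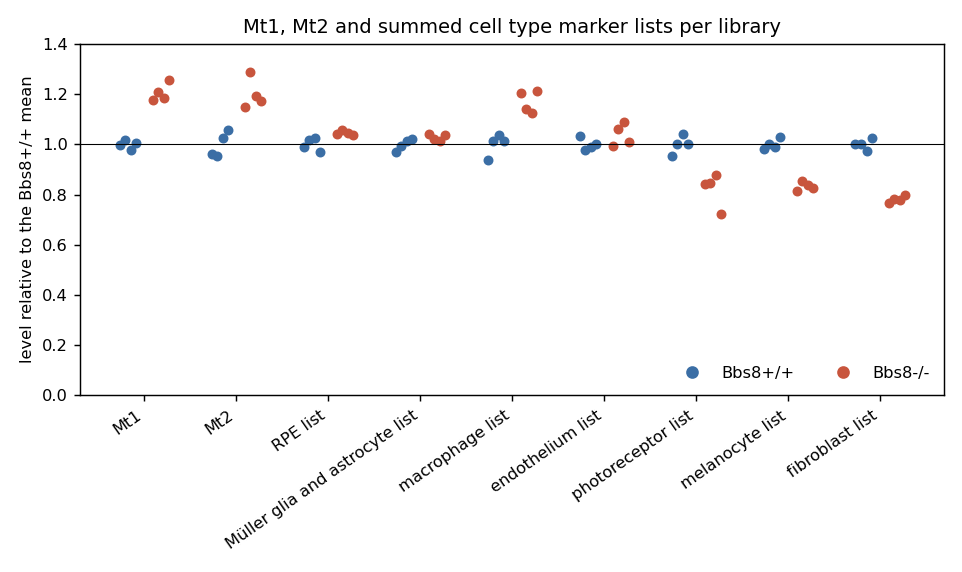
Level of Mt1, Mt2 and the summed marker lists in each library, divided by the Bbs8+/+ mean (y axis, from 0; the line marks 1); the lens list, at a ratio of 2.81, and the Y-linked list, at 1.86, are not drawn. Bbs8-/- libraries of Mt1 and Mt2 lie near 1.2, as do those of the macrophage list, while the RPE list lies at 1.04 and the photoreceptor, melanocyte and fibroblast lists lie below 1.

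The 3 calls differed in how they held up. Mt1 was called under all 18 alternative settings, with log2 fold changes of 0.25 to 0.29, and the FDR never went above 0.00187 in edgeR or DESeq2. Mt2 ranged from 0.23 to 0.29 and was not called without Bbs8-/- replicate 2. Slc39a9 ranged from -0.83 to -0.58 and was not called in 4 of the 18.

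**Figure D4:**
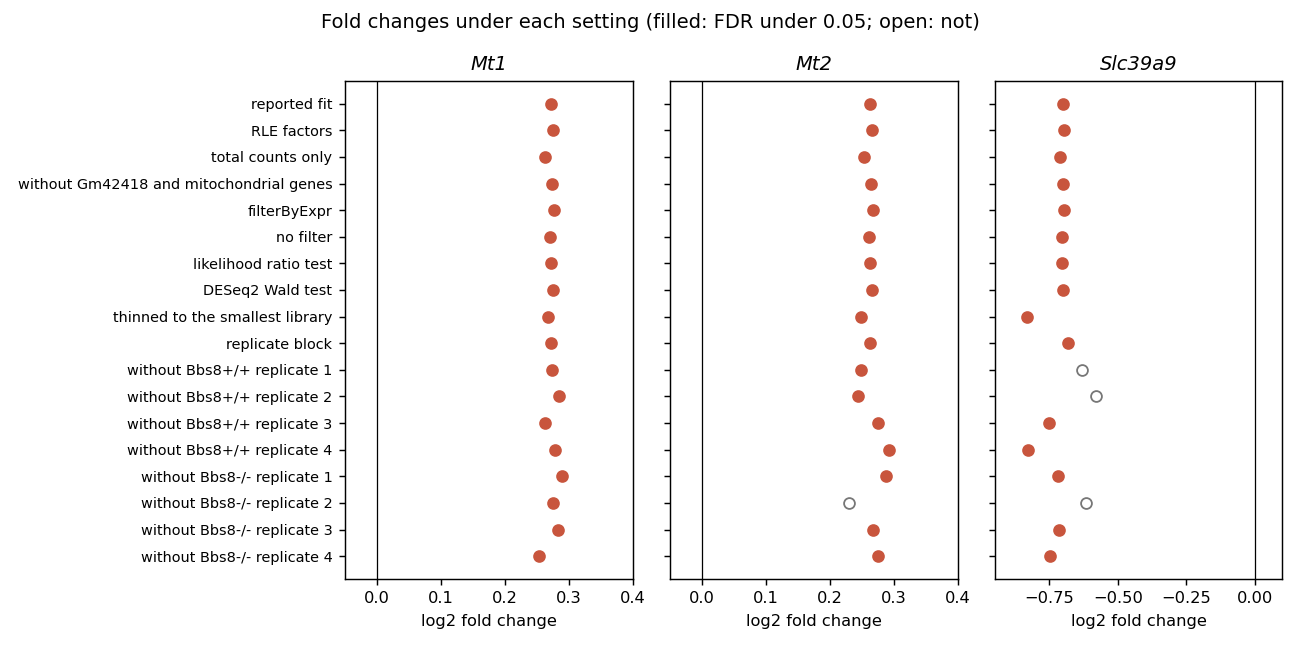
Log2 fold change of Mt1, Mt2 and Slc39a9 (x axes) under the reported fit and each alternative setting that changes the fit (y axis), with filled points for an FDR under 0.05 and open points for others. The points of Mt1 are all filled, Mt2 has 1 open point, and Slc39a9 has 3 open points, each at a fit that leaves out 1 library.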

How the data were processed

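RNA from 8 eyecup preparations was sequenced with the QuantSeq 3′ kit in single reads of 100 bases. The authors trimmed reads with BBDuk, aligned them with STAR to mm10 and deposited raw counts of uniquely aligned reads per Ensembl gene from htseq-count. The strand setting was not given in the sources used here. Reads the counter gave to no single gene (no feature, ambiguous or aligned more than once) made up 57.5% to 59.3% of all it tallied and were left out. Symbols and positions came from GENCODE M21 on the same assembly for 30934 of 31053 identifiers, and promoter windows from RefSeq (GRCm38.p6).

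The filter kept genes that reached 1 CPM in 4 or more libraries. They were fitted in edgeR 4.0.16 (R 4.3.3) with TMM factors and genotype alone, and tested two-sided by quasi-likelihood F tests, with Benjamini-Hochberg adjustment over 13813 genes and a threshold of 0.05. Each standard error is the absolute log2 fold change over the root of F. The procedure was tested on simulated data. The libraries of a genotype are labelled as biological replicates, and whether each came from a separate animal was not tested. The SDs, standard errors and tests given here describe the spread between libraries. No 2 files were identical, and no molecular identifiers were named, so depth limits cover counting error only. Library depth was 1636725 to 2884983 counts, and a floor of 3 counts is 1.04 to 1.83 CPM. The noncoding gene Gm42418 took 15.2% to 18.3% of counts.

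The 9 genes and all lists were chosen with earlier results of these data known. The genes named are the 9, the other members of the metallothionein, Slc30 and Slc39 families, Ttc8, the called genes and the 2 with the highest mean level of the copper, oxidative stress and glucocorticoid lists, and the 5 genes most like Mt1. Rpe65 and Best1 are named as markers, and opposite-strand partners for their overlap. Alternatives were other scaling (RLE factors, total counts, Gm42418 and mitochondrial genes left out), other filters (filterByExpr, none), a likelihood ratio test, DESeq2 1.42.0, thinning to the smallest library, a replicate block, a threshold of 0.01 and each library left out in turn.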

Additional observations from a re-analysis of the deposited data

Results flagged for a closer look

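A library whose gap to the nearest of the other 3 of its genotype took up more of the whole range of the 4 than Dixon's critical value allows was found in 3 of the 70 groups of 4 libraries examined over the named genes, where chance alone gives about 3.5. Slc39a3, an importer gene, stood at 9.81 CPM in Bbs8+/+ replicate 3 and at 16.8 to 18.1 CPM in the other control libraries. Sod1 stood at 537 CPM in Bbs8+/+ replicate 4 and at 563 to 568 CPM in the other controls. Nfe2l2 stood at 91.1 CPM in Bbs8+/+ replicate 4 and at 113 to 116 CPM in the other controls. None of the 9 zinc-handling genes met this criterion in either genotype.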

How the results depend on the processing

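Of the 35 named genes tested, 11 were called, and 8 of these kept their call and direction under all 18 alternatives. Mt2, Slc39a9 and Sgk1 lost it in some and reversed in none. At a threshold of 0.01, 93 genes were higher and 81 lower, and among the 9 zinc-handling genes 2 were higher and 0 lower. With 1 library left out, 114 to 172 genes were higher and 101 to 150 lower, with the 101 found without Bbs8-/- replicate 1. Of the 9 zinc-handling genes, 1 to 2 were then higher (1 without Bbs8-/- replicate 2) and 0 to 1 lower (0 without Bbs8+/+ replicate 1, Bbs8+/+ replicate 2 or Bbs8-/- replicate 2). Fewer libraries entered these fits, and the cause was not tested further. Of the 24 genes not called, Prdx1 was called without Bbs8+/+ replicate 2 (FDR 0.0467) and without Bbs8-/- replicate 2 (FDR 0.0224), and 9 changed sign in some setting. On the log2 scale, leaving out 1 library gave -0.035 to 0.33 for Mtf1, -0.0096 to 0.38 for Slc39a14, -0.075 to 0.12 for Slc30a7, -0.18 to 0.040 for Slc30a9, -0.10 to 0.66 for Slc30a10, -0.036 to 0.20 for Slc39a3, -0.023 to 0.23 for Slc39a11, -0.10 to 0.15 for Slc39a12 and -0.092 to 0.028 for Slc39a13. Thinning to the smallest library gave -0.16 for Slc30a7, 0.0066 for Slc30a9 and -0.022 for Slc39a12. Over all genes the median log2 fold change lay between -0.013 and 0.0066 in every setting. Depth limits genes near 3 counts, such as Slc39a8 and Slc30a10.

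A fit with a replicate block called 134 genes higher and 129 lower, among them 2 and 1 of the 9 zinc-handling genes. The numbers did not pair the libraries: correlations of same-numbered libraries' deviations were 0.0094, 0.011, -0.070 and -0.064, and 1 of 8 libraries correlated best with its own number.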
